A study of Mus musculus with 12 samples.

Results

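The genes described here are 10 members of the matrix metalloproteinase system, namely the 7 proteases *Mmp2*, *Mmp3*, *Mmp9*, *Mmp12*, *Mmp13*, *Mmp14* and *Mmp19* and the 3 tissue inhibitors *Timp1*, *Timp2* and *Timp3*. They were taken by gene name from the 40760 genes of the count table, and each was found once and tested in all comparisons. Matrix metalloproteinases (MMPs) are zinc-dependent enzymes, made as inactive precursors, that cut collagens, elastin, fibronectin and many signalling proteins outside the cell. Tissue inhibitors of metalloproteinases (TIMPs) bind the active enzymes, so the balance of both classes bears on how much matrix is kept or broken down. In the lung, fibroblasts, macrophages and neutrophils each make a different set of them.

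RNA was sequenced from *Pdgfra*+ (CD140a+) lung cells sorted by flow cytometry, *Pdgfra* being a receptor that marks lung fibroblasts. The 12 libraries form 4 groups of 3. Wild-type (WT) mice and mice labelled *Pear1*-/- each received vehicle or bleo, where bleo is bleomycin, a drug given into the airways to cause fibrosis in mice. All libraries are labelled as from male lung, and the general methods give C57BL/6 mice of 8 to 12 weeks. *Pear1*-/- stands for a knockout-first allele, a gene trap cassette placed within an intron, carried in all cells of the animal. The bleo dose, the day of harvest and the number of mice behind each library were not given for these libraries in the sources used here. The labels do not say whether replicates came from separate animals, so p-values measure only the spread between these libraries, which may be technical.

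Total counts ranged from 6702948 to 10447101 per library, so that 3 counts corresponded to 0.287 to 0.448 CPM, the unit in which counts are scaled to a common library total. The targeted gene was not lower in the libraries labelled *Pear1*-/-: *Pear1* stood at 547 ± 28.8 (SD, n = 3) normalized counts in WT vehicle and 519.7 ± 24.0 (SD, n = 3) in *Pear1*-/- vehicle, and at 254 ± 14.0 (SD, n = 3) in WT bleo and 357 ± 14.2 (SD, n = 3) in *Pear1*-/- bleo, where it was higher by 0.48 on the log2 scale without overlap (edgeR, adjusted p = 0.00012). A count over the whole gene does not tell the exons before the trap from those after it, and genotypes are given below as labelled. *Pdgfra* was present in every library, from 4565 ± 325 (SD, n = 3) normalized counts in WT vehicle to 1360.1 ± 29.9 (SD, n = 3) in WT bleo, and *Ptprc*, which encodes the leukocyte antigen CD45, was present too, from 3303 ± 479 (SD, n = 3) in WT vehicle to 7616 ± 97.8 (SD, n = 3) in WT bleo. WT vehicle replicate 2 stood apart from its group. Its chi-square per degree of freedom over all genes was 21.2 and 21.8 against the other WT vehicle libraries, but 1.73, 2.13 and 2.67 against the libraries labelled *Pear1*-/- vehicle. Between WT vehicle replicates 1 and 3 it was 1.58. Within *Pear1*-/- vehicle it ranged from 1.44 to 4.82, with replicate 3 at 4.31 and 4.82 from the others. It was 1.35 to 1.49 within WT bleo and 1.37 to 1.47 within *Pear1*-/- bleo. Whether labels were exchanged between libraries was not tested, and the genotype comparisons hold only for the labels as given. Results of the members whose call or direction rests on this library are given with and without it, for the *Timp3* interaction as a call only. The counts of several lists are given both ways too.

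The question behind the comparisons was how bleo changes gene expression in these cells, and whether the change depends on *Pear1*. Between WT bleo and WT vehicle, 10 of the 10 genes passed an adjusted p of 0.05 in edgeR's quasi-likelihood test, with *Mmp12*, *Mmp13*, *Mmp14*, *Mmp19*, *Timp1* and *Timp2* higher in bleo and *Mmp2*, *Mmp3*, *Mmp9* and *Timp3* lower. Over all 17418 genes tested, 68.0% passed, 31.4% higher and 36.6% lower, so a pass alone says little about this family. With a fold above 2 added, *Mmp12*, *Timp1*, *Mmp13*, *Timp3*, *Mmp3* and *Mmp9* passed, 6 of the 10 against 33.9% of all genes. Without WT vehicle replicate 2, *Mmp9* fell below a fold of 2 and 5 of the 10 passed, against 45.0% of all genes. Between *Pear1*-/- bleo and *Pear1*-/- vehicle, 7 of the 10 passed against 62.3% of all genes, 4 higher (28.9% of all genes) and 3 lower (33.4%), and 6 also had a fold above 2 against 27.8%. Between *Pear1*-/- bleo and WT bleo, 9 of the 10 passed against 46.0% of all genes, with *Timp1*, *Mmp9*, *Mmp14*, *Mmp2* and *Mmp19* higher in *Pear1*-/- bleo and *Mmp12*, *Mmp13*, *Timp2* and *Timp3* lower, where 22.1% of all genes were higher and 23.9% lower. A fold above 2 was reached by 4 of these, *Timp1*, *Mmp9*, *Mmp12* and *Mmp13*, against 15.0% of all genes. Between the vehicle groups 0 of the 10 passed against 4.50% of all genes (0.855% higher and 3.65% lower), a count that rose to 7 without WT vehicle replicate 2, where 55.2% of all genes passed. The comparison of both bleo groups shares its libraries with the bleo-against-vehicle comparisons, so these counts are not independent.

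The median log2 fold change of the 10 genes was 0.51 in WT bleo against WT vehicle, where it was -0.071 over all genes, and 0.10 in *Pear1*-/- bleo against *Pear1*-/- vehicle, where it was -0.048 over all genes. Between the bleo groups it was 0.22, with -0.013 over all genes. The family therefore did not move as a block in any of these comparisons, and single genes ranged from -2.12 (*Mmp12*) to 1.49 (*Timp1*) between the bleo groups. In the vehicle comparison they ranged from -0.46 (*Mmp12*) to 0.75 (*Mmp9*), with a median of -0.10.

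**Figure D1:**
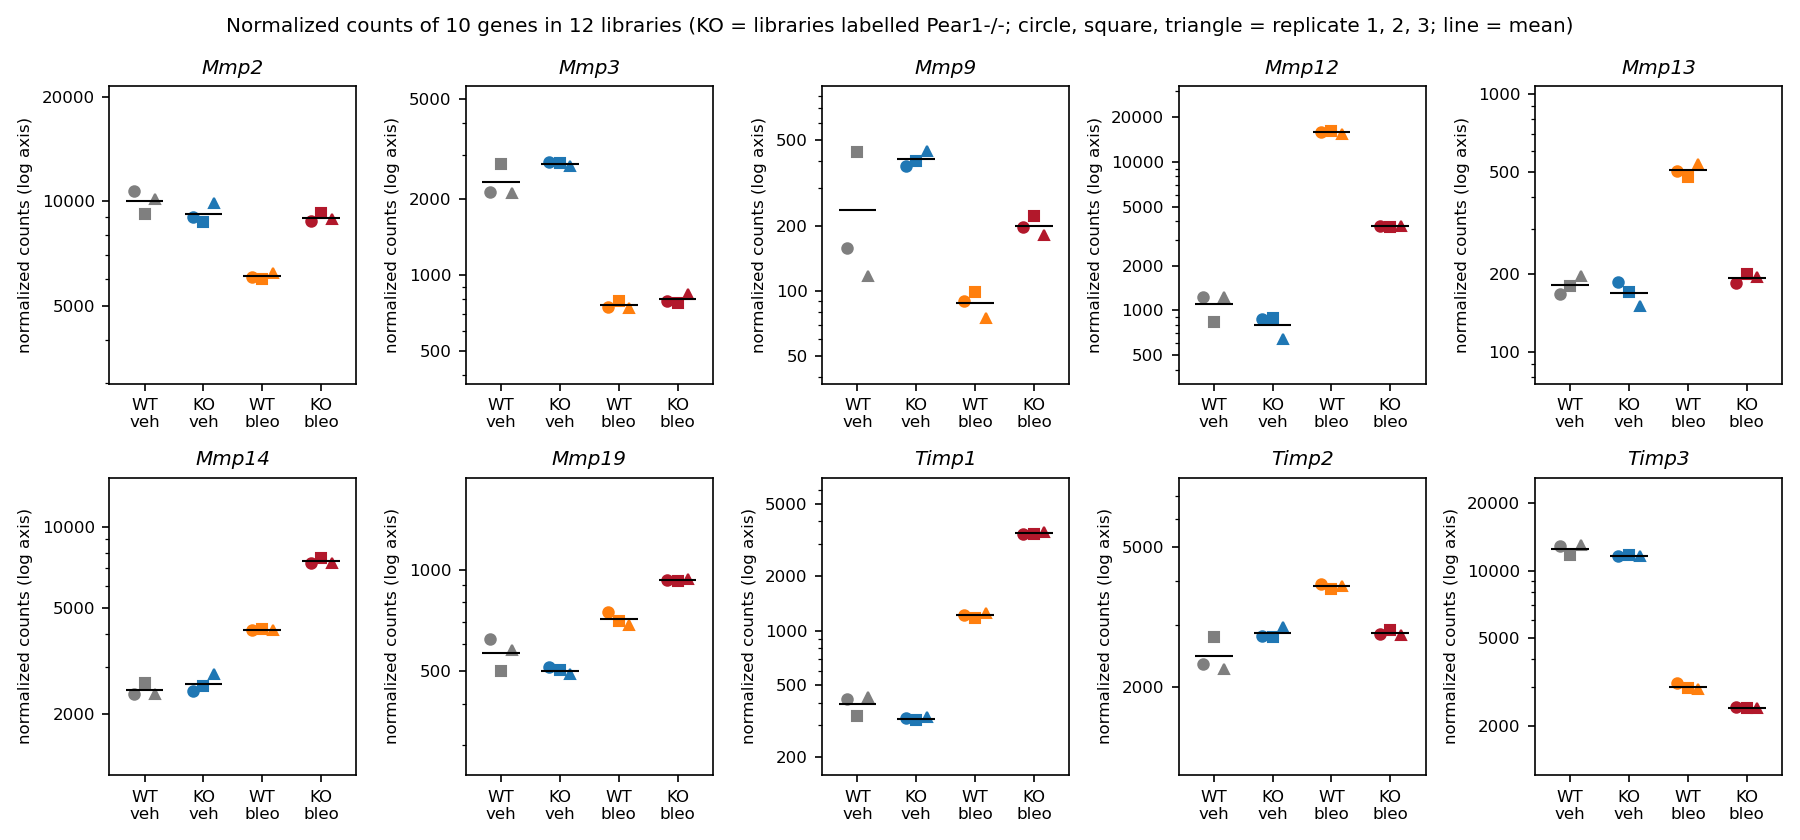
Normalized counts (y axis, log scale) of the 10 genes in each library, by group (x axis; KO marks libraries labelled Pear1-/-), with replicates 1, 2 and 3 as circle, square and triangle and the group mean as a line. Mmp12, Mmp13 and Timp2 are highest in WT bleo, Mmp14, Mmp19 and Timp1 are highest in Pear1-/- bleo, and WT vehicle replicate 2 lies with Pear1-/- vehicle for Mmp9, at 440.4 normalized counts.

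*Mmp13*, *Mmp12* and *Mmp3* lie in 1 cluster of 10 MMP genes at chr9:7272514-7699585, yet *Mmp3* fell in bleo where the other 2 rose in WT. Their promoter sequences, and those of *Timp1* and *Mmp14*, which rose most in *Pear1*-/- bleo relative to WT bleo among the genes with a listed promoter, are shown because the genes moved apart although they belong to the same family. Each is the 100 bases before a transcription start, 5′ to 3′, from RefSeq on GRCm38.p6, and capitals mark the AP-1 motif TGANTCA and the letters of a TATA box.
Mmp13, chr9:7272414-7272513, + strand: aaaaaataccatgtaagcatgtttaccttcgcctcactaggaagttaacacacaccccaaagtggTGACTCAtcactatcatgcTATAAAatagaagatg
Mmp12, chr9:7347274-7347373, + strand: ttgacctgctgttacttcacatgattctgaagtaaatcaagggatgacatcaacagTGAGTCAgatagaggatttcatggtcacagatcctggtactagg
Mmp3, chr9:7445722-7445821, + strand: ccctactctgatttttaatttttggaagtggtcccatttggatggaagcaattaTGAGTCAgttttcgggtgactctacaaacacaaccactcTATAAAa
Timp1, chrX:20870066-20870165, + strand: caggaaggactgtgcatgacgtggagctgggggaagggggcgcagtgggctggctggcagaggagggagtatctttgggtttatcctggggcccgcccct
Mmp14, chr14:54431498-54431597, + strand: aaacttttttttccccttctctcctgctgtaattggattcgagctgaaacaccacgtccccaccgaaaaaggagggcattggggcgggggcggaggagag
The 3 cluster genes each held 1 AP-1 match, which began 35 bases before the start in *Mmp13*, 44 before the second start of *Mmp12* and 46 before the start of *Mmp3*. The TATA box letters, TATAAA, began 16 bases before the start of *Mmp13* and 7 before that of *Mmp3*. The 2 motifs do not overlap, and in the 250 bases before the start, searched on both strands, the first start of *Mmp12* and the promoters of *Mmp14*, *Timp1*, *Timp2* and *Timp3* held neither motif. Among 32851 mouse promoters, 6.75% held the AP-1 motif and 12.4% the TATA box letters within 250 bases before the start, and 2.73% and 5.56% did so within 100 bases. A match is a description of letters and not of a site in use, and *Mmp3* held both motifs although it fell. Of the 10 genes, 7 had an entry, and *Mmp2*, *Mmp9* and *Mmp19* had none.

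*Mmp12*, the macrophage elastase, is a protease named for the cells that make most of it. The gene lies at chr9:7344381-7369499 (GRCm38, plus strand). In WT libraries *Mmp12* had 1235, 842 and 1225 normalized counts with vehicle and 15886, 16198 and 15422 with bleo. With the *Pear1*-/- label it had 879.7, 887 and 645 with vehicle and 3709, 3637 and 3691 with bleo. Every bleo library was above every vehicle library, and the 2 bleo groups did not overlap, with WT bleo the higher. The bleo change was 3.86 (SE 0.14, adjusted p = 5.38e-12) in WT, a 14.5-fold rise and the largest of the 10 genes there. In *Pear1*-/- it was 2.20 (SE 0.14, adjusted p = 2.72e-09). *Mmp12* was 4.34-fold lower in *Pear1*-/- bleo than in WT bleo (log2 -2.12, SE 0.13, adjusted p = 7.83e-09). The difference between the bleo changes, tested as an interaction, was -1.66 (SE 0.19, adjusted p = 7.51e-06).

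*Mmp13*, an interstitial collagenase that cuts fibrillar collagen, had a similar order of groups at a much lower count. Its gene lies at chr9:7272514-7283331, on the plus strand. In WT libraries *Mmp13* had 167, 179.6 and 197 normalized counts with vehicle and 505, 476 and 539 with bleo. The *Pear1*-/- libraries had 187, 171 and 151 with vehicle and 185, 200.3 and 195 with bleo. Only the 3 WT bleo libraries were high, and *Pear1*-/- bleo overlapped both vehicle groups. It rose by 1.49 (SE 0.094, adjusted p = 1.94e-09) in WT bleo on the log2 scale, whereas the *Pear1*-/- change was 0.19 (adjusted p = 0.104, 95% interval -0.019 to 0.40). *Pear1*-/- bleo was 2.64-fold lower than WT bleo (log2 -1.40, SE 0.091, adjusted p = 1.09e-08), and the interaction was -1.30 (SE 0.14, adjusted p = 3.98e-06).

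Markers of macrophages were highest in the same group as these 2 genes, WT bleo. The summed level of 12 macrophage markers with vehicle was 2305 to 2366 CPM in WT and 2313 to 2364 in *Pear1*-/-, and with bleo it was 16455 to 16542 in WT and 6552 to 6740.3 in *Pear1*-/-. All 12 were above 3 counts in every group, with the complement gene *C1qa* at 17762 ± 289.6 (SD, n = 3) normalized counts in WT bleo and 5343 ± 119 (SD, n = 3) in *Pear1*-/- bleo. In WT bleo 11 of the 12 rose, against 31.4% of all genes (median log2 fold change 2.99, over all genes -0.071). In *Pear1*-/- bleo 11 of the 12 were lower than in WT bleo, against 23.9% of all genes (median -1.23, over all genes -0.013), *Marco* being the exception both times, at -0.34 and 0.55. In *Pear1*-/- bleo against its vehicle 10 of the 12 rose, against 28.9% of all genes (median 1.70, over all genes -0.048), and neither *Marco* at 0.51 nor *Ptprc* at -0.18 passed. *Mmp12* rose in that comparison too, whereas *Mmp13* did not pass. Their part in the changes of *Mmp12* and *Mmp13* was not tested. In bulk libraries such as these, fewer cells of a type and less RNA per cell cannot be told apart.

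**Figure D2:**
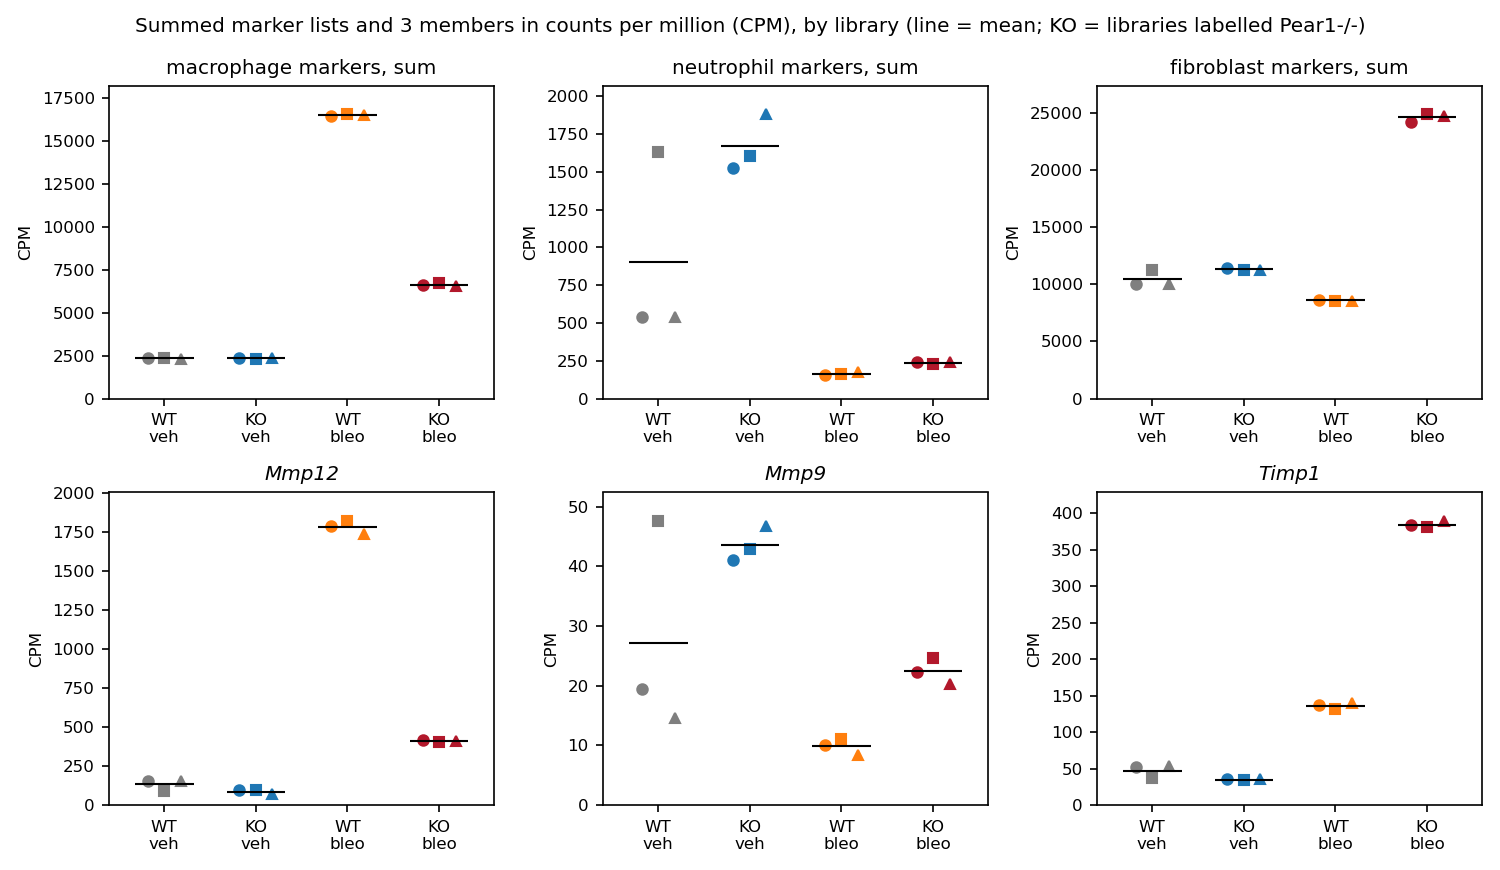
Top row, summed level (y axis, CPM) of 12 macrophage, 6 neutrophil and 7 fibroblast markers in each library; bottom row, Mmp12, Mmp9 and Timp1 in CPM, with groups on the x axis, replicates as symbols and group means as lines. Mmp12 and the macrophage sum are both highest in WT bleo, and Mmp9 and the neutrophil sum are both high in WT vehicle replicate 2 and in Pear1-/- vehicle.

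*Mmp9*, or gelatinase B, is stored in neutrophil granules and cuts denatured collagen and type IV collagen of basement membranes. The gene lies at chr2:164940780-164955850 on the plus strand. In WT libraries *Mmp9* had 158, 440.4 and 118 normalized counts with vehicle and 90.0, 98.9 and 74.9 with bleo. With the *Pear1*-/- label it had 379.7, 399 and 444 with vehicle and 199, 222 and 182 with bleo. WT vehicle replicate 2 was within the range of *Pear1*-/- vehicle, while replicates 1 and 3 were below all 3 of those libraries. *Mmp9* fell in bleo, with a log2 change of -1.45 (SE 0.35, adjusted p = 0.00208) in WT and -1.01 (SE 0.30, adjusted p = 0.00925) in *Pear1*-/-. The WT fall was -0.57 (adjusted p = 0.000945) without WT vehicle replicate 2. Both bleo groups were apart, with *Pear1*-/- higher by 1.18 (SE 0.35, adjusted p = 0.0131). That call was lost without WT bleo replicate 3, at 1.07 (adjusted p = 0.0643), and without *Pear1*-/- bleo replicate 2, at 1.09 (adjusted p = 0.0544). All 4 groups shared the estimate of spread, so the uneven WT vehicle libraries also entered these p-values. Over the alternatives run, the adjusted p of this comparison ranged from 2.27e-16 to 0.0643. Between the vehicle groups the difference was 0.75 (SE 0.30, adjusted p = 0.115) with all libraries and 1.63 (adjusted p = 3.37e-15) without WT vehicle replicate 2. The interaction was 0.43 (SE 0.47, adjusted p = 0.497) with all libraries and turned to -0.46 (adjusted p = 0.0306) without that library.

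Neutrophil markers moved with *Mmp9* among the vehicle libraries. The sum of 6 markers (*S100a8*, *S100a9*, *Ly6g*, *Cxcr2*, *Csf3r*, *Retnlg*) with vehicle was 538 to 1634 CPM in WT and 1527 to 1881 in *Pear1*-/-, and with bleo it was 158 to 174 in WT and 229.8 to 242 in *Pear1*-/-, with *Ly6g* at the limit of 3 counts in each WT bleo library. In bleo 5 of the 6 fell in WT (36.6% of all genes) and 6 of the 6 in *Pear1*-/- (33.4%), with *Csf3r* at 0.21 (adjusted p = 0.58) in WT. Without WT vehicle replicate 2 the WT comparison had 5 lower and *Csf3r* higher, at 1.18 (adjusted p = 9.14e-14), against 76.4% of all genes in either direction. The median of the 6 went from -2.53 to -1.57. Without WT vehicle replicate 2, 6 of the 6 passed as higher in *Pear1*-/- vehicle, against 55.2% of all genes in either direction, whereas 0 passed with it, against 4.50%. Between the bleo groups 1 of the 6 passed, *S100a8*, higher in *Pear1*-/- by 0.90 (adjusted p = 0.0331), against 46.0% of all genes, and without WT vehicle replicate 2 there were 3 higher and 1 lower, against 49.2%. Their part in the *Mmp9* differences was not tested.

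*Mmp2*, or gelatinase A, is the gelatinase typical of fibroblasts, and its gene lies at chr8:92827291-92853420 on the plus strand. In WT libraries *Mmp2* had 10735, 9214 and 10129 normalized counts with vehicle and 6056, 5987 and 6222 with bleo. With the *Pear1*-/- label it had 9016, 8714 and 9861 with vehicle and 8781, 9237 and 8887 with bleo. The 3 WT bleo libraries were below all others, whereas *Pear1*-/- bleo overlapped *Pear1*-/- vehicle. In WT it fell by 0.71 (SE 0.068, adjusted p = 2.84e-07) on the log2 scale, and in *Pear1*-/- the difference was -0.032 (adjusted p = 0.694, 95% interval -0.18 to 0.11). *Pear1*-/- bleo was 1.46-fold higher than WT bleo (log2 0.55, SE 0.068, adjusted p = 1.02e-05), and the interaction was 0.68 (SE 0.096, adjusted p = 7.23e-05).

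*Mmp14*, also called MT1-MMP, sits in the cell membrane, cuts fibrillar collagen and activates pro-MMP2 in a complex that contains TIMP2. It lies at chr14:54431612-54445364 on the plus strand. In WT libraries *Mmp14* had 2388, 2609 and 2381 normalized counts with vehicle and 4127, 4164 and 4124 with bleo. The *Pear1*-/- libraries had 2439, 2549 and 2828 with vehicle and 7334, 7620.2 and 7347 with bleo. The order was the vehicle groups, which overlapped, then WT bleo, then *Pear1*-/- bleo, with gaps between these 3 levels. The bleo rise was 0.76 (SE 0.068, adjusted p = 1.16e-07) in WT and 1.52 (SE 0.069, adjusted p = 7.25e-11) in *Pear1*-/-. Between the bleo groups *Pear1*-/- was 1.78-fold higher (log2 0.83, SE 0.068, adjusted p = 1.14e-07), with an interaction of 0.75 (SE 0.095, adjusted p = 2.45e-05).

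*Mmp19*, a protease of basement membrane proteins, showed the same order of groups with smaller steps. The gene is at chr10:128790910-128800824, plus strand. In WT libraries *Mmp19* had 622, 501 and 577 normalized counts with vehicle and 751, 703 and 685 with bleo. With the *Pear1*-/- label it had 512, 503 and 490.0 with vehicle and 931, 927 and 943 with bleo. No bleo library overlapped a vehicle library, and *Pear1*-/- bleo was above WT bleo in 3 of 3 libraries. The bleo rise was 0.34 (SE 0.079, adjusted p = 0.00126) in WT and 0.90 (SE 0.079, adjusted p = 1.3e-07) in *Pear1*-/-, the bleo groups differed by 0.38 (SE 0.077, adjusted p = 0.000965), and the interaction was 0.56 (SE 0.11, adjusted p = 0.00123). *Tmem198b*, which overlaps *Mmp19* on the opposite strand, had between 21.0% and 36.3% as many counts as *Mmp19*, and the strand setting of the counting was not given, so reads in the shared stretch cannot be assigned to either gene with certainty.

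*Mmp3*, or stromelysin 1, cuts many matrix proteins and activates other pro-MMPs. Its gene lies at chr9:7445822-7455975 on the plus strand. In WT libraries *Mmp3* had 2142, 2759 and 2126 normalized counts with vehicle and 748, 791 and 742 with bleo. The *Pear1*-/- libraries had 2817, 2782 and 2709 with vehicle and 788, 777 and 839.8 with bleo. All bleo libraries were low, whichever the genotype label, and the 2 bleo groups overlapped. It fell 3.06-fold in WT (log2 -1.61, SE 0.092, adjusted p = 6.33e-10) and 3.44-fold in *Pear1*-/- (log2 -1.78, SE 0.092, adjusted p = 3.11e-10). The interaction was -0.17 (SE 0.13, adjusted p = 0.307) with all libraries and -0.39 (adjusted p = 7.09e-05) without WT vehicle replicate 2. The difference between the bleo groups was 0.063 (adjusted p = 0.601, 95% interval -0.13 to 0.26), which leaves out a change of 1.5-fold or more in either direction. *Mmp3* is thus the 1 protease of the 7 that did not pass between the bleo groups.

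*Timp1*, the inducible inhibitor, blocks most soluble MMPs, MMP9 among them. *Timp1* lies at chrX:20870166-20874735 on the plus strand. In WT libraries *Timp1* had 418, 337 and 432 normalized counts with vehicle and 1224, 1175 and 1243 with bleo. The *Pear1*-/- libraries had 328, 319 and 334 with vehicle and 3411, 3421 and 3498 with bleo. The spread within each bleo group was far below the gap between them. *Timp1* rose 3.10-fold in WT (log2 1.63, SE 0.087, adjusted p = 2.86e-10) and 10.6-fold in *Pear1*-/- (log2 3.40, SE 0.091, adjusted p = 2.63e-13), the largest rise of the 10 genes in *Pear1*-/-. *Pear1*-/- bleo was 2.81-fold above WT bleo (log2 1.49, SE 0.083, adjusted p = 1.98e-09), and the interaction was 1.77 (SE 0.12, adjusted p = 7.29e-08). Between the vehicle groups the *Timp1* difference was -0.28 (adjusted p = 0.0655). *Syn1*, which overlaps *Timp1* on the opposite strand, had 20 to 90 counts per library, at most 12.5% of those of *Timp1*. The opposite-strand partners of *Mmp12* (*Mmp1b*) and *Timp3* (*Syn3*) each had under 1% of the counts of their member.

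Most fibroblast markers were higher, like *Timp1* and *Mmp14*, in *Pear1*-/- bleo than in WT bleo. The sum of 7 markers with vehicle was 10043 to 11273 CPM in WT and 11263 to 11442 in *Pear1*-/-, and with bleo it was 8577 to 8639.8 in WT and 24216 to 24876 in *Pear1*-/-. Of the 7, 5 were higher in *Pear1*-/- bleo than in WT bleo and 1, *Thy1*, was lower (median log2 fold change 0.80), against 22.1% of all genes higher and 23.9% lower, while *Dcn* did not pass at 0.14. In *Pear1*-/- bleo against its vehicle 3 rose, *Col1a1*, *Col1a2* and *Pdgfrb*, and 4 fell, *Pdgfra* (-0.80), *Dcn* (-2.41), *Lum* (-1.33) and *Thy1* (-0.60), so the median was -0.60 although the sum rose. Of all genes, 28.9% rose and 33.4% fell there. From WT bleo to *Pear1*-/- bleo, *Col1a1* alone went from 42471 ± 36.2 (SD, n = 3) to 142173 ± 3129 (SD, n = 3) normalized counts. The part of this shift in the *Timp1* and *Mmp14* differences was not tested.

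*Timp2*, which inhibits MMPs and also takes part in the activation of pro-MMP2 by MMP14, rose in WT and did not pass in *Pear1*-/-. It lies at chr11:118301069-118355740 on the minus strand. The protein-coding gene *Cep295nl* overlaps *Timp2* on the same strand, and its counts were not compared with those of *Timp2*. In WT libraries *Timp2* had 2331, 2781 and 2253 normalized counts with vehicle and 3940.1, 3791 and 3884 with bleo. With the *Pear1*-/- label it had 2796, 2776 and 2956 with vehicle and 2835, 2905 and 2814 with bleo. WT bleo was above all others, and *Pear1*-/- bleo overlapped *Pear1*-/- vehicle. The bleo change was 0.67 (SE 0.076, adjusted p = 1.75e-06) in WT and 0.0085 (adjusted p = 0.927, 95% interval -0.15 to 0.17) in *Pear1*-/-, and the test of this difference gave -0.66 (SE 0.11, adjusted p = 0.000226). Between the bleo groups the log2 fold change was -0.45 (SE 0.076, adjusted p = 0.000161), lower in *Pear1*-/-. *Timp3*, an inhibitor that stays bound to the matrix, lies at chr10:86300372-86349506 on the plus strand. In WT libraries *Timp3* had 12826, 11702 and 13082 normalized counts with vehicle and 3116, 2987 and 2937 with bleo. The *Pear1*-/- libraries had 11634, 11756 and 11625 with vehicle and 2439, 2427 and 2419 with bleo. All bleo libraries were far below all vehicle libraries. The fall was 4.13-fold in WT (log2 -2.04, SE 0.061, adjusted p = 3.97e-13) and 4.79-fold in *Pear1*-/- (log2 -2.26, SE 0.061, adjusted p = 3.14e-13). *Pear1*-/- bleo was below WT bleo in 3 of 3 libraries with a log2 fold change of -0.32 (SE 0.059, adjusted p = 0.00035). The *Timp3* interaction of -0.22 (SE 0.083, adjusted p = 0.0542) did not pass with all libraries, but it passed without WT vehicle replicate 2. The 3 inhibitors thus had 3 different patterns.

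**Figure D3:**
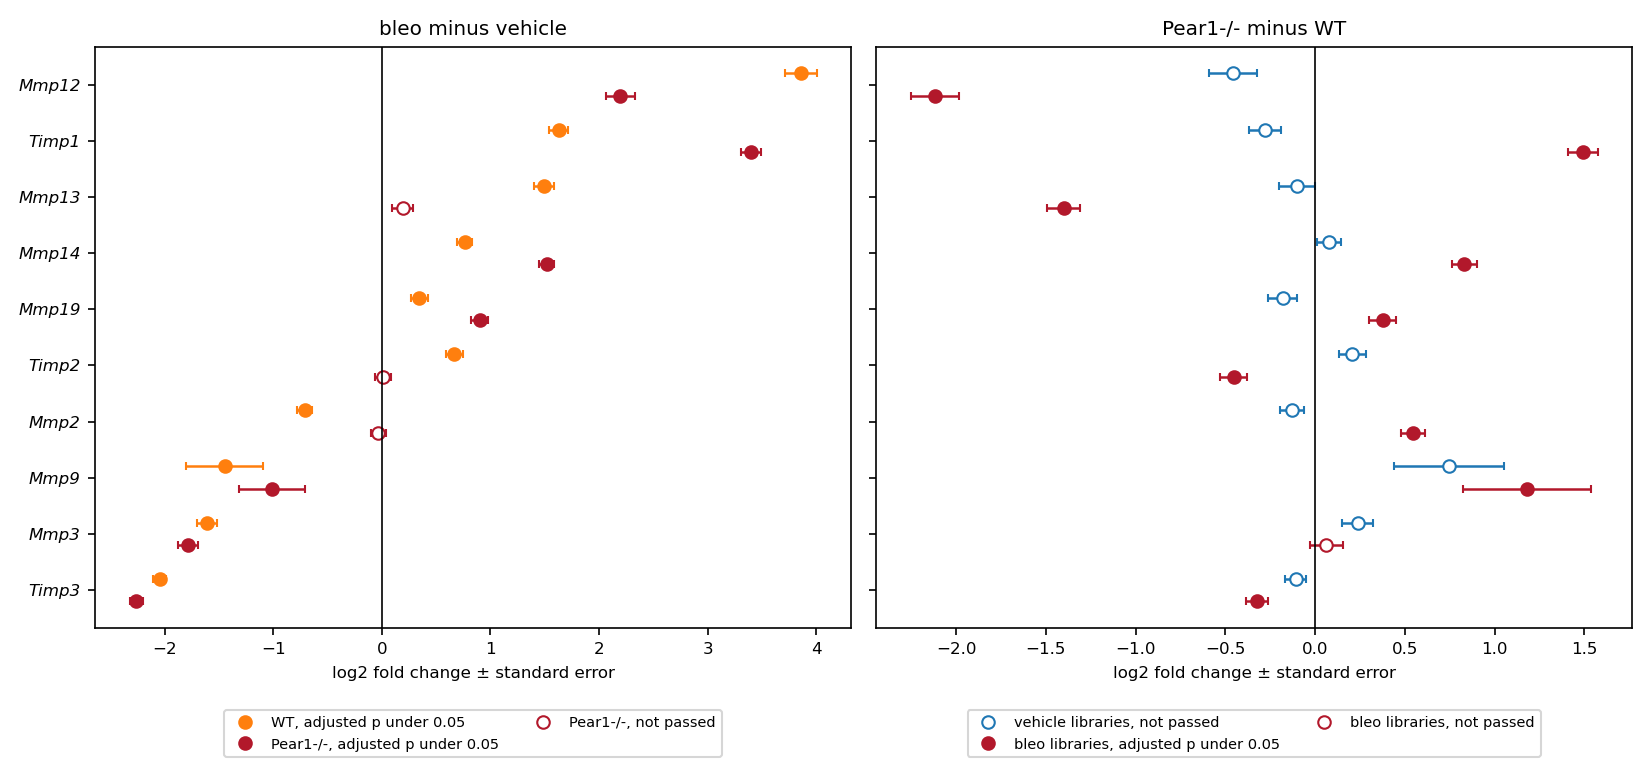
Log2 fold changes (x axis) with standard errors (bars) of the 10 genes (y axis), left for bleo minus vehicle in WT and in Pear1-/-, right for Pear1-/- minus WT in the vehicle and in the bleo libraries; filled points passed an adjusted p of 0.05. Mmp2, Mmp13 and Timp2 are filled for WT and open near 0 for Pear1-/- on the left, and all vehicle points on the right are open.

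Taking the interaction over the family, the bleo change differed between the genotypes for 7 of the 10 genes, against 37.0% of all genes tested (17.9% more positive and 19.1% more negative). It was more positive in *Pear1*-/- for *Timp1*, *Mmp14*, *Mmp2* and *Mmp19* and more negative for *Mmp12*, *Mmp13* and *Timp2*, while *Mmp3*, *Mmp9* and *Timp3* did not pass. Without WT vehicle replicate 2, 10 of the 10 passed, against 46.4% of all genes. In the vehicle comparison the 7 genes that passed without that library were *Mmp9*, *Mmp3* (0.44, adjusted p = 1.39e-08), *Timp2* (0.38, adjusted p = 2.63e-07) and *Mmp14* (0.20, adjusted p = 0.00378), higher in *Pear1*-/-, and *Mmp12* (-0.54, adjusted p = 5.37e-08), *Timp1* (-0.31, adjusted p = 0.000827) and *Mmp19* (-0.19, adjusted p = 0.0286), lower. In that setting 55.2% of all genes passed. With all 12 libraries 5508 of the 17418 genes had an unadjusted p under 0.05 in edgeR. DESeq2's Wald test passed 2 of the 10, *Mmp12* and *Timp1*, against 8.54% of all genes. Without a filter on low counts edgeR passed 4, *Mmp3*, *Mmp9*, *Mmp12* and *Timp2*, against 13.8% of all genes.

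Ratios of counts within a library do not depend on scaling between libraries, and 3 pairs of a protease and an inhibitor known to bind it were compared, without adjustment for gene length. The log2 ratio of *Mmp14* to *Timp2* was 0.035, -0.092 and 0.08 with vehicle and 0.067, 0.14 and 0.087 with bleo in WT, and -0.20, -0.12 and -0.064 with vehicle and 1.37, 1.39 and 1.39 with bleo in *Pear1*-/-. Counts of both genes were thus close to equal in 9 libraries and 2.61-fold apart in the 3 libraries of *Pear1*-/- bleo. The difference between the bleo groups was 1.29 (exact permutation test, two-sided, p = 0.1, 0.2 after Benjamini-Hochberg adjustment over the 12 ratio comparisons), and 0.1 is the smallest p that 3 against 3 allow. For *Mmp2* to *Timp2* the log2 ratio was 2.20, 1.73 and 2.17 with vehicle and 0.62, 0.66 and 0.68 with bleo in WT, and 1.69, 1.65 and 1.74 with vehicle and 1.63, 1.67 and 1.66 with bleo in *Pear1*-/-. Here WT bleo was the low group, 1.0 below *Pear1*-/- bleo (exact permutation p = 0.1, adjusted 0.2), and *Pear1*-/- bleo overlapped *Pear1*-/- vehicle. For *Mmp9* to *Timp1* it was -1.41, 0.39 and -1.87 with vehicle and -3.77, -3.57 and -4.05 with bleo in WT, and 0.21, 0.32 and 0.41 with vehicle and -4.10, -3.95 and -4.26 with bleo in *Pear1*-/-. That ratio was low in all bleo libraries, and the bleo groups overlapped with a difference of -0.31 (exact permutation p = 0.2, adjusted 0.24). Its mean in WT vehicle rested on replicate 2, since the WT bleo difference of -2.83 became -2.16 without it.

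**Figure D4:**
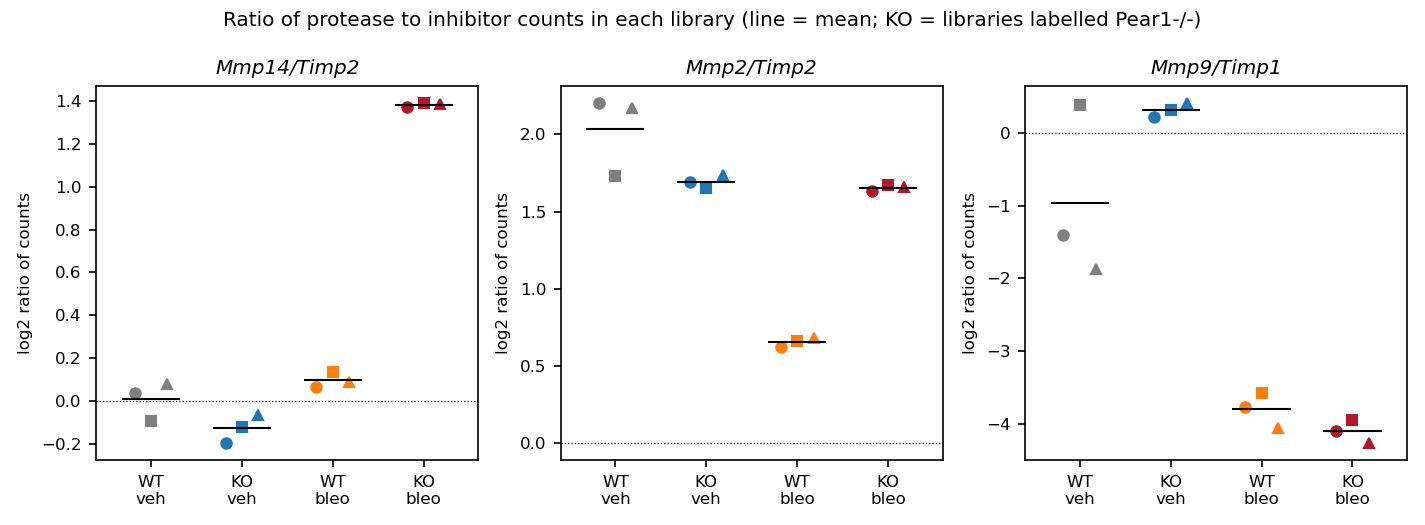
Log2 ratio of counts (y axis) of Mmp14 to Timp2, Mmp2 to Timp2 and Mmp9 to Timp1 in each library, by group (x axis), with replicates as symbols and group means as lines. The Mmp14 to Timp2 ratio is near 0 in 3 groups and 1.38 on average in Pear1-/- bleo.

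Levels of different genes were compared as CPM per kilobase of exon. In WT vehicle *Mmp2* led at 353 ± 51 (SD, n = 3), ahead of *Timp3* at 183 ± 24 and *Mmp3* at 153 ± 11.1, which overlapped. *Pear1*-/- vehicle had the same 3 genes on top, with *Mmp2* at 292 ± 15, *Mmp3* at 164 ± 5.64 and *Timp3* at 153 ± 2.76. The top of the order changed in bleo. WT bleo was led by *Mmp12* at 246 ± 5.85, then *Mmp2* at 203 ± 4.22 and *Timp1* at 154 ± 4.59. *Pear1*-/- bleo was led by *Timp1* at 433 ± 4.99, then *Mmp2* at 297 ± 6.94 and *Mmp14* at 139 ± 2.7, and none of these 3 overlapped its neighbour. *Mmp12* followed after *Timp2* there, at 56.8 ± 0.816. Of the summed level of the 10 genes, the leading gene held 38.4% in WT and 35.6% in *Pear1*-/- with vehicle, and 26.5% in WT and 38.2% in *Pear1*-/- with bleo. *Mmp9* was the lowest in both bleo groups and *Mmp13* the lowest in *Pear1*-/- vehicle at 6.79 ± 0.831, while in WT vehicle *Mmp9* and *Mmp13* overlapped at the bottom. With the longest transcript as the length, the leading gene of each group stayed the same and several ranks below it changed. *Mmp14* then passed *Timp2* in all groups but *Pear1*-/- bleo, where it was already higher, and *Timp3* passed *Mmp3* in the 3 groups where *Mmp3* had been higher. In *Pear1*-/- bleo *Mmp12* passed *Timp2*, and in WT vehicle *Mmp13* fell below *Mmp9*.

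**Figure D5:**
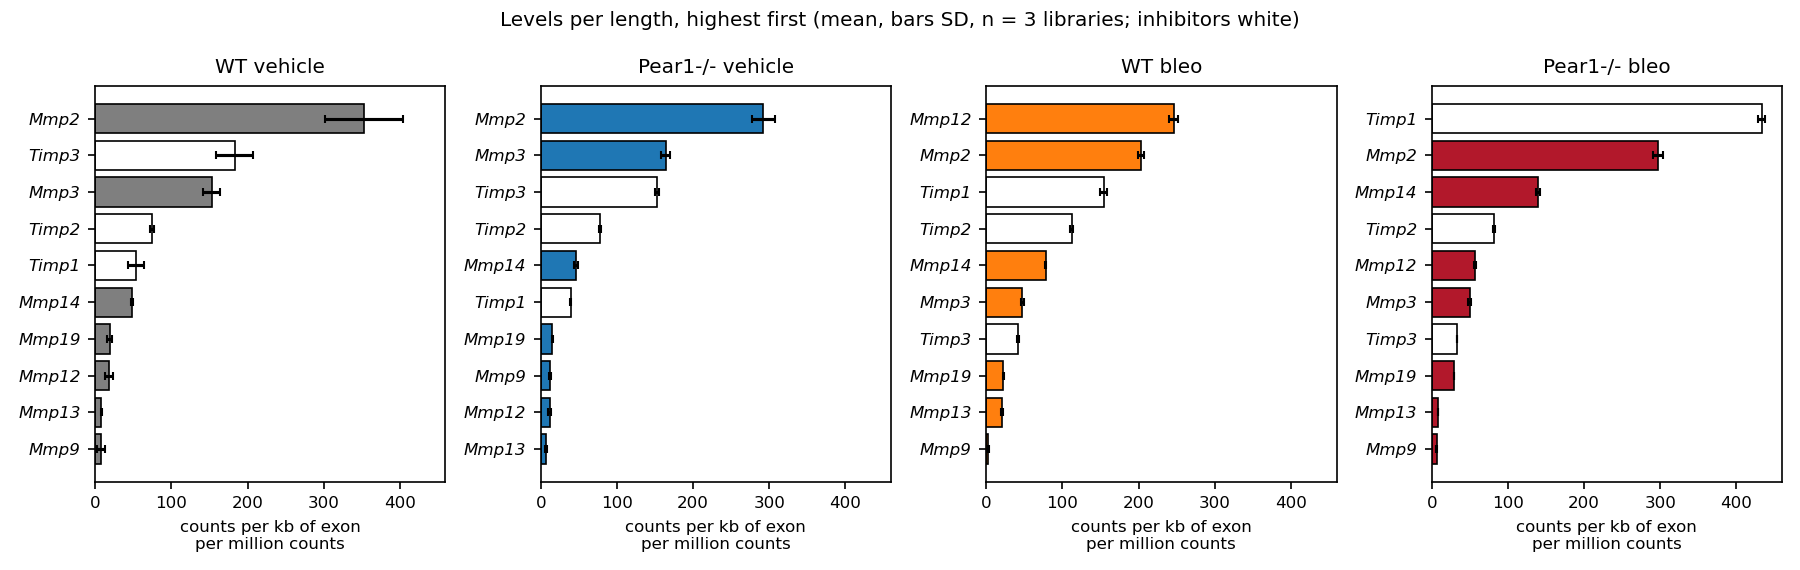
Levels per length (x axis, CPM per kilobase of exon) of the 10 genes (y axis, highest first) in each group, as mean and SD of 3 libraries, with inhibitors in white. Mmp2 leads both vehicle groups, Mmp12 leads WT bleo and Timp1 leads Pear1-/- bleo.

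The rest of the family, 16 further MMP genes and *Timp4*, was mostly low. *Mmp1a*, *Mmp1b*, *Mmp7*, *Mmp20* and *Mmp21* had at most 14 counts in any library and were not tested. Of the 12 tested genes, 9 passed in WT bleo against WT vehicle, 2 higher and 7 lower (median log2 fold change -0.76), against 68.0% of all genes. The higher genes were *Mmp10*, stromelysin 2, of the same cluster as *Mmp3*, at 2.62 (adjusted p = 0.000247), and *Mmp25*, a membrane-anchored protease of leukocytes, at 1.52 (adjusted p = 2.53e-05). The lower genes were *Mmp27* (-2.96), the inhibitor *Timp4* (-2.74), the membrane-type proteases *Mmp16* (-2.13), *Mmp24* (-1.68) and *Mmp15* (-1.24), *Mmp11* (-0.78) and *Mmp23* (-0.75). Some of these lay near the floor of 3 counts. *Mmp24* had 5 to 13 raw counts per library in WT vehicle and 3 to 4 in WT bleo. In WT bleo *Mmp27* had 5 to 7 and *Timp4* 3 to 13. *Mmp8*, *Mmp17* and *Mmp28* did not pass, with 0.12, 0.39 and 0.037. The *Mmp8* value rested on WT vehicle replicate 2 and was 0.90 (adjusted p = 5.69e-08) without it. In *Pear1*-/- bleo against *Pear1*-/- vehicle, 3 rose and 5 fell (median -0.11), against 62.3% of all genes, and *Mmp11* at 0.25 and *Mmp25* at 0.35 did not pass.

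*Mmp10* went from 6, 0 and 13 raw counts in WT vehicle and 1, 0 and 1 in *Pear1*-/- vehicle to 48, 34 and 53 in WT bleo and 74, 89 and 81 in *Pear1*-/- bleo. Against a floor of 3 counts per library in *Pear1*-/- vehicle it was at least 22.3-fold higher in *Pear1*-/- bleo. The bleo groups differed by 0.71 (adjusted p = 0.105), which did not pass. That difference was 0.70 (adjusted p = 0.00121) without WT vehicle replicate 2. Between the bleo groups 5 of the 12 tested genes passed, against 46.0% of all genes. Leaving out WT vehicle replicate 2 gave 4 higher and 3 lower, against 49.2% of all genes, with *Mmp10* and *Mmp15* (-0.54, adjusted p = 0.0352) added. *Mmp8*, the neutrophil collagenase, had 180.0, 168 and 170.1 normalized counts in WT bleo and 427, 446 and 421 in *Pear1*-/- bleo, 1.31 (SE 0.25, adjusted p = 0.000554) on the log2 scale. *Mmp23* was higher in *Pear1*-/- bleo by 1.33 (adjusted p = 1.27e-07) and *Mmp11*, or stromelysin 3, by 0.63 (adjusted p = 0.000364), whereas *Mmp16* was lower, at -1.0 (adjusted p = 0.00253), as was *Mmp25*, at -0.62 (adjusted p = 0.0184). The median over the 12 was -0.071, so these genes had no common direction. Among the vehicle libraries *Mmp8* was high in WT vehicle replicate 2 and in all of *Pear1*-/- vehicle, with 95.8, 278 and 99.6 normalized counts in WT vehicle and 274, 237 and 275 in *Pear1*-/- vehicle. No gene of the 12 passed between the vehicle groups in edgeR (0, with 4.50% over all genes), and 6 passed without that library, 3 higher and 3 lower, against 55.2% of all genes. Without it, the WT bleo comparison had 3 higher and 7 lower, against 76.4% of all genes.

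Genes that activate, clear or restrain MMPs were followed as a list of 12, chosen with earlier results of these data known. In WT bleo 5 rose and 5 fell (median log2 fold change -0.029). Without WT vehicle replicate 2, 6 rose and 5 fell there (median 0.088), against 76.4% of all genes. In *Pear1*-/- bleo against its vehicle 6 rose and 3 fell (median 0.30), and between the bleo groups 6 were higher and 3 lower in *Pear1*-/- (median 0.25). With all libraries, 68.0%, 62.3% and 46.0% of all genes passed in these 3 comparisons. The counts of 10 and 9 of 12 in the first 2 are therefore not far above the background. *Plau*, the urokinase that starts plasmin formation, rose from 100.4 ± 14.7 to 686 ± 29.9 (SD, n = 3) normalized counts in WT and was lower in *Pear1*-/- bleo, at 274 ± 21.8 (SD, n = 3), a log2 fold change of -1.33 (adjusted p = 1.72e-08). Of the 3 proprotein convertases, *Pcsk6* (-1.58, adjusted p = 0.0043) and *Furin* (-0.45, adjusted p = 0.00151) were lower in *Pear1*-/- bleo than in WT bleo, and *Pcsk5* was higher (1.21, adjusted p = 4e-09). *Pcsk6* was low, with 11 to 24 raw counts per library in WT bleo and 4 to 8 in *Pear1*-/- bleo. *Furin*, which cleaves pro-MMP14 among many precursors, rose with bleo by 2.18 (adjusted p = 7.33e-11) in WT and 2.16 (adjusted p = 1.34e-10) in *Pear1*-/-. *A2m*, a broad protease inhibitor (0.99, adjusted p = 0.0436), *Mrc2*, the endocytic collagen receptor (0.94, adjusted p = 3.21e-06), and *Ctsk*, a collagen-cutting cathepsin (0.64, adjusted p = 1.21e-06), were higher in *Pear1*-/- bleo. *Furin* was also the 1 gene of the 12 to pass between the vehicle groups, at -0.42 (adjusted p = 0.0415), and without WT vehicle replicate 2 there were 4 higher and 3 lower, against 55.2% of all genes. *Reck*, a membrane-anchored MMP inhibitor chosen after its values were seen, fell in both genotypes, at -2.27 (adjusted p = 2.57e-12) in WT and -2.39 (adjusted p = 2.56e-12) in *Pear1*-/-, and the difference between these falls did not pass (interaction -0.11, adjusted p = 0.458).

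Of 8 matrix genes whose products MMPs cut, 5 rose and 1 fell in WT bleo (median log2 fold change 0.29), where 31.4% of all genes rose and 36.6% fell. All 8 rose in *Pear1*-/- bleo against its vehicle (8 of 8, median 1.59), against 28.9% of all genes. Between the bleo groups 8 of the 8 were higher in *Pear1*-/- (median 1.30), against 22.1% of all genes. The 6 largest differences were those of *Col1a1* (1.73, adjusted p = 6.6e-12), *Col5a1* (1.61, adjusted p = 1.07e-10), *Eln*, which encodes elastin (1.53, adjusted p = 7.21e-10), *Col1a2* (1.44, adjusted p = 2.7e-11), *Col3a1* (1.16, adjusted p = 3.77e-11) and *Fn1*, which encodes fibronectin (1.03, adjusted p = 3.65e-05). These genes and *Timp1* were higher in the same 3 libraries in which *Mmp12* and *Mmp13* were lower than in WT bleo. Between the vehicle groups 1 of the 8 passed, *Fn1*, lower in *Pear1*-/- at -0.69 (adjusted p = 0.0388), and without WT vehicle replicate 2 there were 3 higher and 2 lower, against 55.2% of all genes. The WT bleo comparison had 7 higher and 1 lower without it, against 76.4% of all genes. Of the 8 matrix genes, *Col1a1* and *Col1a2* are also among the 7 fibroblast markers.

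As a description of the patterns, the genes nearest to each member over the 12 libraries were listed, by the root mean square difference of centred log2 CPM among 10453 genes whose log2 CPM averaged 3 or more. The libraries share group and depth, so nearness says nothing on common control. *Mmp12* lay nearest to *Aif1* (0.19), *Ccr2* (0.25) and *Lair1* (0.26), genes of macrophages, monocytes and other leukocytes. *Mmp13* lay nearest to *Cd83* (0.11), *Mgat4a* (0.12) and *Cdk9* (0.13). *Timp1* lay nearest to *P4ha3*, a collagen prolyl hydroxylase subunit (0.12), *Nrep* (0.18) and *Cdc20* (0.27). For *Mmp14* these were *2810025M15Rik* (0.098), *Ctsk* (0.11) and *Psat1* (0.11), and for *Mmp3* the complement genes *C1ra* (0.052) and *C1s1* (0.060) and then *Cygb* (0.072). The nearest genes of *Timp3* were *Slit3* (0.073), *Bmp4* (0.097) and *Alpl* (0.099), and those of *Mmp2* were *Fndc1* (0.059), *Pja2* (0.076) and *Lbp* (0.077). *Mmp9* had *Vpreb3*, a gene of B cell precursors (0.15), *Mt2* (0.19) and *Cyp1b1* (0.20). *Mmp19* had *Dusp6* (0.070), *Exosc9* (0.078) and *2310039H08Rik* (0.079), and *Timp2* had *Junb* (0.039), *Ids* (0.042) and *Sec14l1* (0.057).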

How the data were processed

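RNA from flow-sorted *Pdgfra*+ lung cells was amplified with SMART-Seq v4, sequenced, aligned to GRCm38 with HISAT2 and counted per gene by the authors. The counting program and its strand setting were not given in the sources used here, and the kit does not mark strand. The authors deposited raw counts, which were tested. They also deposited a linear signal, each count divided by a DESeq2 size factor of its library, printed here as normalized counts.

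Groups were taken from the labels. Tests used edgeR 4.0.16 (quasi-likelihood, TMM, filterByExpr, 12 libraries, 1 mean per group) in R 4.3.3, with Benjamini-Hochberg adjustment over 17418 genes, and were tested on simulated data. Confidence intervals are 95% intervals from the same fit. DESeq2 1.42.0 and limma 3.58.1 (pseudocount 1), another scaling, no filter, fewer groups, a replicate block and leaving out libraries were alternatives, and the lists and the count past a fold of 2 without WT vehicle replicate 2 were added after seeing the data. Replicate numbers did not pair the libraries. Ratios were compared by exact permutation tests. Lengths and positions came from GENCODE M21 (GRCm38). Figures were drawn with matplotlib 3.10.9.

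The members and lists were chosen with earlier results of these data known. Named were all 10 members, every tested gene of the remaining family, up to 6 genes of each other list with the largest differences between the bleo groups that passed without overlap, and the 3 genes nearest each member. *Furin*, *Reck* and the single marker genes given with values were chosen after their values were seen. With 6702948 to 10447101 counts per library, the lowest member, *Mmp9*, had at least 74 raw counts in a library. Limits from counts cover counting error only.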

Additional observations from a re-analysis of the deposited data

Results flagged for a closer look

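The bleo change differed between the genotypes as labelled, by edgeR's test of the interaction (adjusted p under 0.05), for 7 of the 10 genes. In log2 units, as the *Pear1*-/- change minus the WT change, the differences were 1.77 for *Timp1*, 0.75 for *Mmp14*, 0.68 for *Mmp2*, 0.56 for *Mmp19*, -0.66 for *Timp2*, -1.30 for *Mmp13* and -1.66 for *Mmp12*. The *Mmp12* difference was one between rises of unequal size, whereas *Mmp2*, *Mmp13* and *Timp2* passed in WT and not in *Pear1*-/-. Over all genes tested, 37.0% passed the same test. Single outlying libraries were not tested for in these groups of 3, and the chi-square values given for WT vehicle replicate 2 are a description.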

How the results depend on the processing

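Over the 50 comparisons of a member, 650 alternatives were run: 613 kept the direction and the side of the threshold, 24 passed where the reported test had not, 2 no longer passed and 11 changed sign. The 2 were *Mmp9* between the bleo groups, given above, over alternatives that ranged from 2.27e-16 to 0.0643 in adjusted p. The sign changes were all of values near 0, except 1. *Timp2* in *Pear1*-/- bleo against its vehicle was -0.0066 with DESeq2 size factors in edgeR, -0.0063 with DESeq2, -0.0030 with only the groups compared, and from -0.030 to 0.026 leaving out 1 library. *Mmp2* there was 0.020 without a filter and -0.092 to 0.0089 leaving out 1 library, above 0 without *Pear1*-/- vehicle replicate 3. *Mmp13* between the vehicle groups was -0.15 to 0.018 leaving out 1 library, above 0 without the same one. The exception was the *Mmp9* interaction, from -0.46 to 0.76 leaving out 1 library, the lowest without WT vehicle replicate 2 (adjusted p = 0.0306, range over its alternatives 0.0306 to 0.783). The count of members between the vehicle groups was 2 with DESeq2, 4 without a filter and 0 to 7 leaving out 1 library, the 7 without WT vehicle replicate 2. That of the interaction was 7 to 10, the 10 without WT vehicle replicate 2, and *Timp3* passed it in 10 of 17 alternatives. In the other 3 comparisons the counts were 10, 7, and 8 to 9 under all alternatives run. With the longest transcript as length, the share of the leading gene was 33.8% in WT and 31.6% in *Pear1*-/- with vehicle, and 33.1% in WT and 32.3% in *Pear1*-/- with bleo. The cause of these shifts was not tested.

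With a fold above 2, the count over all genes went from 5910 to 13669 without a filter and 9192 without WT vehicle replicate 2 in WT bleo against WT vehicle, and from 4847 to 8019 without a filter in *Pear1*-/-. Between the vehicle groups it went from 411 to 658 with DESeq2, 2990.0 without a filter, 0 with only the groups compared and 0 to 4939 leaving out 1 library (0 without any 1 of the others, 4939 without WT vehicle replicate 2), and for the interaction from 2729 to 4468 without WT vehicle replicate 2. Without the filter, the median log2 fold change of the 17418 genes in WT bleo against WT vehicle moved by 0.13 on the log2 scale. Deviations of libraries with the same replicate number correlated at -0.16 to 0.10, with 0 of 18 over 0.1, and 3 of 12 libraries lay closest to their own number. With the replicate block the vehicle count was 349, and the counts of members passed were 10, 7, 9, 0 and 7 in the order WT, *Pear1*-/-, bleo groups, vehicle groups and interaction, unchanged. Each of the 10 members had at least 74 raw counts in every library, whereas some other family members had few. The effect of depth was not tested.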

Other observations

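Epithelial markers, 5 genes that the sort should have left out, summed with vehicle to 4312 to 5608 CPM in WT and 5269 to 5995 in *Pear1*-/-, and with bleo to 1380.0 to 1406 in WT and 626 to 637 in *Pear1*-/-. The members did not all follow the sum. In WT bleo against WT vehicle, *Sftpc* (-1.22), *Scgb1a1* (-2.23) and *Krt8* (-0.90) fell on the log2 scale, and *Cdh1* (0.90) and *Epcam* (0.36) rose. All 5 passed there, against 68.0% of all genes (31.4% higher and 36.6% lower). With bleo, *Sftpc* (-2.0), *Scgb1a1* (-0.69) and *Epcam* (-0.30) were lower in *Pear1*-/- than in WT, *Cdh1* (0.40) was higher and *Krt8* (0.058) did not pass. Thus 4 of the 5 passed between the bleo groups, against 46.0% of all genes. Markers of pericytes and smooth muscle, also 5, summed with vehicle to 427 to 497 CPM in WT and 402 to 434 in *Pear1*-/-, and with bleo to 344 to 352 in WT and 909 to 918 in *Pear1*-/-. Of these 5, 1 was higher in *Pear1*-/- bleo than in WT bleo, *Acta2* (1.52), and 2 were lower, *Notch3* (-0.76) and *Myh11* (-0.40). *Cspg4* (0.36) and *Rgs5* (-0.01) did not pass, and the median of the 5 was -0.010. The 5 endothelial markers summed with vehicle to 330.4 to 363 CPM in WT and 349 to 366 in *Pear1*-/-, and with bleo to 164 to 178 in WT and 178 to 190 in *Pear1*-/-. Of these, *Tek* (0.33) was higher and *Cdh5* (-0.34) lower in *Pear1*-/- bleo than in WT bleo. For both of these lists the numbers passed, 3 and 2 of 5, lie near the 46.0% of all genes that passed (22.1% higher and 23.9% lower).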
